A study of Mus musculus with 4 samples.

Results

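Imprinted genes were followed in primary liver sinusoidal endothelial cells (LSECs), the fenestrated cells that line the capillary-like vessels of the liver, after transfection of a small interfering RNA (siRNA) against Airn, itself an imprinted long noncoding RNA. The genes were chosen by name, as 40 genes of well-known imprinted clusters, and 31 of the 40 were found among the 18373 genes of the deposited table. The other 9 (H19, Meg3, Rian, Mirg, Kcnq1ot1, Slc22a2, Slc22a3, Magel2 and Rasgrf1) were not analysed here. LSECs were isolated from the livers of BALB/c mice 8 weeks old, cultured for 24 h, transfected for 48 h with the control siRNA (NC) or with siAirn, and sequenced at day 3 as 2 NC and 2 siAirn libraries, which the labels call biological replicates. Both siAirn libraries are labelled with siAirn1 although the protocol speaks of a pair of separate siAirn, so the siRNA given to each library is not settled. The comparison asks which genes change in LSECs when Airn is targeted. No label names the mouse behind a library. The p-values below therefore measure the spread between these 4 libraries, which may share animals. The libraries held between 17308382 and 18371959 counts.

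Imprinted genes are expressed mainly from the copy inherited from the mother or mainly from the copy inherited from the father. They lie in clusters governed by an imprinting control region, whose DNA methylation is set in egg or sperm and kept in the body by factors such as ZFP57, TRIM28 and DNMT1. In several clusters the control region contains the promoter of a long noncoding RNA that silences its neighbours on the same chromosome. Airn and Kcnq1ot1, both transcribed from the paternal copy, are the classical examples. Many imprinted genes regulate growth through the IGF2 system. BALB/c is an inbred strain, so both parental copies of a gene carry the same sequence and the counts give the sum of both alleles. "Maternally expressed" and "paternally expressed" below refer to what is known of each gene in mouse tissues. Several genes are known to be imprinted only in placenta or in neurons, and some of these are named as they come up. Whether any gene is imprinted in LSECs was not measured.

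Between NC and the libraries labelled siAirn, 5 imprinted genes rose (Igf2r, Grb10, Nnat, Ube3a and Impact) and 3 fell (Kcnq1, Cdkn1c and Sgce) among the 27 with enough counts for a test, and Airn was not lower in the libraries labelled siAirn than in NC. The log2 fold changes of the 27 genes ran from -0.78 (Kcnq1) to 1.26 (Ascl2), and their median was -0.06 beside 0.00 for all genes tested. Genes were called at an adjusted p under 0.05 (edgeR, quasi-likelihood test, Benjamini-Hochberg adjustment over 13628 genes), and 16.8% of all genes tested were called, 8.27% as higher and 8.56% as lower. The study used a threshold on fold change (over 1.4) together with an unadjusted p under 0.05. By that threshold, 5 imprinted genes were higher (Ascl2, Peg3, Nnat, Snrpn and Impact) and 2 were lower (Kcnq1 and Cdkn1c), against 5.25% of all genes tested as higher and 4.72% as lower (9.96% together). Nnat, Impact, Kcnq1 and Cdkn1c passed both criteria. In 17 of the 27 genes the values of NC and siAirn did not overlap, 9 higher and 8 lower, a share close to the 62.7% of all genes. Log2 fold changes across all genes tested fell with the GC content of the transcript (Spearman's rho -0.33, a description across genes). A correction of the counts for GC content and transcript length (the GC and length correction) was added once this trend was seen. After it, Nnat and Impact were called higher and Sgce lower, and the other 5 calls were lost, while 7.96% of 12948 genes were called, 2.82% as higher and 5.14% as lower. Fits without NC replicate 1 or NC replicate 2 left 1 library in NC and called few or no genes of all tested. The 8 genes lost their calls there, and their log2 fold changes kept their sign. DESeq2 did not call Grb10 (adjusted p = 0.0511), Kcnq1 (0.0868) or Cdkn1c (0.0565), and called Gnas as lower (0.0463).

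Markers of several cell types were also called, beside 8.27% higher and 8.56% lower among all genes. Of the LSEC markers, 10 of 14 tested were lower and none was higher in siAirn, and their summed level was 11380 to 11630 CPM (counts scaled to the size of the library) in NC and 7509 to 8326 CPM in siAirn. Of the stellate cell and fibroblast markers, 4 of 16 were higher and none was lower, with a summed level of 1769 to 2047 CPM in NC and 1998 to 2447 CPM in siAirn. Of the hepatocyte markers, 2 of 14 were higher (657.9 to 834.8 CPM in NC, 919 to 1197 CPM in siAirn). Most of this sum was Alb, named after its values were seen (496.6 and 637.6 CPM in NC, 704.7 and 900.2 CPM in siAirn). Alb was not called by edgeR (adjusted p = 0.0598). Of the Kupffer cell and macrophage markers, 9 of 15 were lower and 1 was higher (461 to 533.5 CPM in NC, 345 to 395 CPM in siAirn). With GC content and length corrected, 12 LSEC markers were lower, 3 stellate cell and fibroblast markers and 1 hepatocyte marker were higher, and 4 Kupffer cell and macrophage markers were lower, beside 2.82% higher and 5.14% lower among all genes. Gfap, Dpt, Tat and Timd4, named after their values were seen, had at most 3 counts in any library and were not tested. In bulk RNA, fewer cells of a type and less RNA per cell cannot be told apart, and the part of cell composition in the values of the imprinted genes was not tested.

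Airn, the RNA that silences Igf2r on the paternal chromosome, was at the limit of detection. NC replicates 1 and 2 gave 7 and 3 Airn counts, and the libraries labelled siAirn gave 11 and 9. Both libraries labelled siAirn were above both NC libraries. Scaled to TMM library sizes, siAirn had 1.97 times the Airn of NC, and the exact binomial 95% interval ran from 0.88 to 4.71, which covers counting error only. Leaving out each library in turn moved the ratio between 1.37 and 3.37, the latter without NC replicate 1. The labels are used as given, and every direction below is that of the libraries labelled siAirn.

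The sites of the 3 siAirn sequences are shown because they fix which part of Airn the siRNAs address. Capitals mark the 7 bases that pair with the seed (bases 2 to 8) of the guide strand. Coordinates are from GENCODE M21 on GRCm38, plus strand. No annotated transcript of another gene held an exact match of all 19 bases of a site. Matches of the seed alone or with mismatches were not searched.
siAirn-1, exon 1 of Airn-201, chr17:12741392-12741410: ccagttaccacGCAGACAt
siAirn-2, exon 2 of Airn-201, chr17:12815154-12815172: ccgtcaccatgTGTCCTTt
siAirn-3, exon 2 of Airn-201, chr17:12814570-12814588: gcagctctcatCTGTGTTa

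The siAirn-1 site is carried by 4 annotated Airn transcripts, the siAirn-2 site by 1 and the siAirn-3 site by 2. Airn (chr17:12741311-12860136, plus strand) runs antisense to Igf2r (chr17:12682406-12769664, minus strand) and starts within it. The siAirn-1 site lies inside the span of Igf2r but in no Igf2r exon, and the siAirn-2 and siAirn-3 sites lie beyond the Igf2r start. The exons of Airn and Igf2r do not overlap in this annotation. A read in an exon of one is therefore not also in an exon of the other, although an unspliced Airn transcript would cross Igf2r introns.

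The promoters of both genes are printed because the imprinting control region of the locus covers the start of Airn and its methylation on the maternal chromosome keeps Airn silent there. Each window holds 250 bases before and 50 after the annotated start (RefSeq, GRCm38.p6, the strand of the gene), with CpG dinucleotides, the sites of this methylation, in capitals.
Airn, chr17:12741061-12741360, plus strand: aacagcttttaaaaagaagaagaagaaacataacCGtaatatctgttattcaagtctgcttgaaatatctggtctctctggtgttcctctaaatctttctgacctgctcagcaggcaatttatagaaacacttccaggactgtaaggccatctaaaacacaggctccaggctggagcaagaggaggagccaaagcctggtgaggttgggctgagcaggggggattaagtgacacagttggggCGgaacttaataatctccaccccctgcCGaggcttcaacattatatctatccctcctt
Igf2r, chr17:12769657-12769956, minus strand: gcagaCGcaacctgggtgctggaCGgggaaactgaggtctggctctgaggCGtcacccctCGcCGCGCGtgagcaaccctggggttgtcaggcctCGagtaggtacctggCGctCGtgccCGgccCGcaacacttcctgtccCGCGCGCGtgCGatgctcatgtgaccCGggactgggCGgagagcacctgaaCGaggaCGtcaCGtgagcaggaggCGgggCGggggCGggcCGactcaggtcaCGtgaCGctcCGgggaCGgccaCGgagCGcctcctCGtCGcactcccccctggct

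The Igf2r window held 34 CpG, more than 92.3% of the 32851 windows in the table, and the Airn window held 3, more than 23.3% of them, with a median of 7. Methylation was not measured in these libraries.

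Igf2r, the maternally expressed cation-independent mannose 6-phosphate receptor that carries IGF2 to the lysosome, rose in the libraries labelled siAirn. Igf2r was at 34.6 and 34.8 CPM in NC and at 41.9 and 50.5 CPM in siAirn. The NC libraries were nearly equal, the siAirn libraries lay apart from each other, and the groups did not overlap. The log2 fold change was 0.41 with a standard error (SE) of 0.10 (edgeR adjusted p = 0.0379). Without siAirn replicate 2 it was 0.27 and the call was lost (adjusted p = 0.124), and after the GC and length correction it was 0.24 (adjusted p = 0.171).

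**Figure D1:**
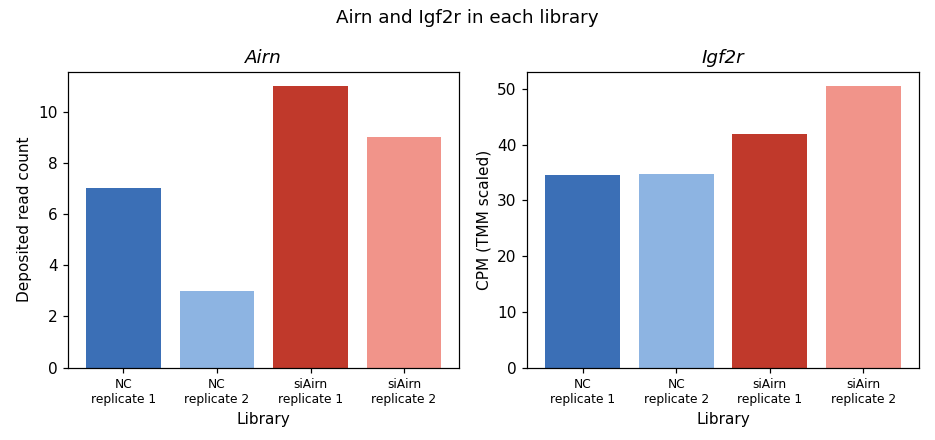
Deposited read counts of Airn (left) and CPM of Igf2r (right) in each of the 4 libraries, 1 bar per library. Airn had 3 to 11 counts, and Igf2r was at 34.6 to 34.8 CPM in NC and 41.9 to 50.5 CPM in siAirn.

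Other genes around Airn on chromosome 17, which are not members of the imprinted list, did not pass the test. Of 13 genes tested there, 0 were called by edgeR or by DESeq2, and 2 had an unadjusted p under 0.05. Among the 13628 genes tested by edgeR, it called 16.8%, and 4631 had an unadjusted p under 0.05. Of the same genes, DESeq2 called 824 as higher and 894 as lower. These 2 genes were Pde10a, a cyclic nucleotide phosphodiesterase (46.9 and 47.0 CPM in NC, 55.8 and 53.7 CPM in siAirn, adjusted p = 0.0693), and Qk, an RNA-binding splicing regulator (272 and 249 CPM in NC, 307.6 and 293 CPM in siAirn, adjusted p = 0.0871), both named after their values were seen. After the GC and length correction the log2 fold change of Pde10a went from 0.22 to 0.01 (adjusted p = 0.913) and that of Qk from 0.21 to -0.10 (adjusted p = 0.345). The median log2 fold change of the 13 genes was 0.10. In 6 of them siAirn lay above NC without overlap, in 2 below, and in 5 the groups overlapped, beside 30.9% above and 31.9% below among all genes.

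Igf2, the paternally expressed growth factor that Igf2r binds, was at low levels, with 0.66 to 1.58 CPM in NC and 1.27 to 1.30 CPM in siAirn. Both siAirn values lay between the NC values, and the sign of its log2 fold change (0.21, SE 0.47, adjusted p = 0.789) turned when NC replicate 2 was left out. In GENCODE M21, 64.5% of its exonic bases also belong to exons of other genes, mainly Gm49394 on the same strand, so its counts are uncertain. Around IGF2, 13 other genes of receptors, binding proteins and signalling were tested, of which 3 fell and 1 rose, beside 8.56% and 8.27% of all genes. The members that fell were secreted IGF-binding proteins. Igfbp3 was at 40.1 and 38.9 CPM in NC and at 14.2 and 14.5 CPM in siAirn (log2 fold change -1.46, adjusted p = 0.00235). Igfbp7 had a log2 fold change of -0.69 (adjusted p = 0.00667) and Igfbp4 of -0.65 (adjusted p = 0.00775). Irs2, an adaptor of the insulin and IGF1 receptors, rose by 0.56 (adjusted p = 0.0156). These 4 calls also held after the GC and length correction. Igf1r, the receptor through which IGF2 signals, was at 121 and 114 CPM in NC and at 133 and 154 CPM in siAirn and was not called (adjusted p = 0.0606), and is named here after its values were seen.

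Grb10, a maternally expressed adaptor that restrains insulin and IGF receptor signalling, rose slightly. It was at 163 and 161 CPM in NC and at 190.2 and 190.4 CPM in siAirn, with no overlap and little spread in either group. The log2 fold change was 0.23 (SE 0.06, adjusted p = 0.0399). Leaving out each library in turn gave log2 fold changes of 0.22 to 0.24, in fits with 1 library in a group that did not call Grb10. Those without an NC library called few or no genes of all tested. Grb10 was also not called after the GC and length correction (log2 fold change 0.13, adjusted p = 0.173).

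In the Kcnq1 cluster on chromosome 7, which is silenced on the paternal copy by Kcnq1ot1, 2 of 7 maternally expressed genes fell and none rose, beside 8.56% lower and 8.27% higher among all genes. Kcnq1, a voltage-gated potassium channel, was at 7.003 and 8.46 CPM in NC and at 4.43 and 4.58 CPM in siAirn. The groups did not overlap, and the siAirn values were the closer together. Its log2 fold change was -0.78 (SE 0.18, adjusted p = 0.0289). Cdkn1c, which encodes the cell cycle inhibitor p57Kip2, was at 22.2 and 20.2 CPM in NC and at 15.4 and 14.4 CPM in siAirn. It was lower in both siAirn libraries, with a log2 fold change of -0.51 (SE 0.11, adjusted p = 0.0230). Without siAirn replicate 2 the log2 fold change of Cdkn1c was -0.465 and the call was lost. After the GC and length correction neither was called (Kcnq1 -0.66, adjusted p = 0.0630, and Cdkn1c -0.32, adjusted p = 0.123). Exons of Gm44732 on the opposite strand cover 30.7% of the exonic bases of Cdkn1c, and those of Kcnq1ot1 cover 2.96% of Kcnq1. Whether the counting used strand is not stated, so reads of these partners cannot be told apart.

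The other 5 genes of the Kcnq1 cluster were not called. Phlda2, a growth-restraining gene of placenta, was at 2.98 and 2.76 CPM in NC and at 1.94 and 2.21 CPM in siAirn (log2 fold change -0.47, adjusted p = 0.250). Ascl2, a transcription factor of trophoblast and intestinal stem cells that is imprinted in placenta, was at 0.47 and 0.55 CPM in NC and at 1.22 and 1.24 CPM in siAirn. Ascl2 thus had the largest log2 fold change of the 27 genes, 1.26 (SE 0.41), and passed the threshold of the study, but its level was low and its adjusted p was 0.0757. Cd81, a broadly expressed tetraspanin imprinted in placenta, was at 496 and 491 CPM in NC and at 444 and 443 CPM in siAirn (log2 fold change -0.15, adjusted p = 0.106). In each of these 3 genes the groups did not overlap. Slc22a18, a transporter, had 0.70 to 1.16 CPM in NC and 1.19 to 1.27 CPM in siAirn, also without overlap (adjusted p = 0.530). Tssc4, imprinted in placenta, overlapped between groups, at 35.8 to 36.9 CPM in NC and 32.9 to 36.8 CPM in siAirn (adjusted p = 0.659).

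**Figure D2:**
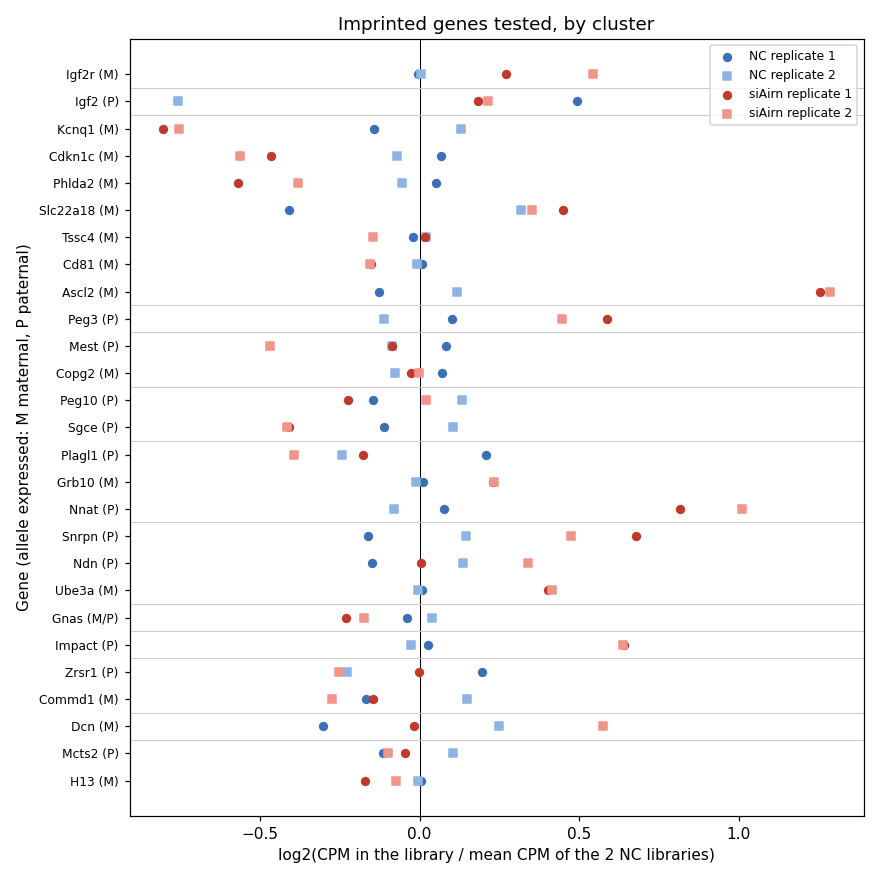
Log2 ratio of the CPM in each library to the mean CPM of the 2 NC libraries, for the 27 imprinted genes tested, ordered by cluster with lines between neighbouring groups and marked by the allele expressed. Both siAirn libraries lie right of both NC libraries for 9 genes and left of them for 8, and the groups overlap for 10.

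Impact, a paternally expressed inhibitor of the stress kinase GCN2 that is transcribed on its own rather than in a large cluster, had the smallest adjusted p of the imprinted genes. It was at 49.8 and 48.0 CPM in NC and at 76.2 and 76.1 CPM in siAirn. The libraries within each group were nearly equal, and the groups lay far apart beside that spread. The log2 fold change was 0.64 (SE 0.07, adjusted p = 0.00508), and 0.54 after the GC and length correction (adjusted p = 0.00916). None of its exonic bases lies under an exon of another gene. Without NC replicate 1 the log2 fold change of Impact was 0.66, and without NC replicate 2 it was 0.61. The call was lost in both fits, which called few or no genes of all tested.

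Nnat, a paternally expressed small membrane protein of the endoplasmic reticulum, also rose, at low levels. It was at 2.22 and 1.99 CPM in NC and at 3.71 and 4.24 CPM in siAirn, without overlap. The log2 fold change was 0.92 (SE 0.24, adjusted p = 0.0436) and 1.14 after the GC and length correction (adjusted p = 0.0361). Leaving out each library in turn gave log2 fold changes of 0.82 to 1.01, in fits with 1 library in a group that did not call Nnat. Those without an NC library called few or no genes of all tested. DESeq2 gave no adjusted p for Nnat.

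In the Snrpn-Ube3a cluster on chromosome 7, the region of the Prader-Willi and Angelman syndromes, Ube3a rose and the other 2 genes tested were not called. Ube3a, a ubiquitin ligase that is maternally expressed in neurons and biallelic elsewhere, was at 73.6 and 73.0 CPM in NC and at 96.9 and 97.7 CPM in siAirn. The difference between the groups was far larger than that within them. The log2 fold change was 0.41 (SE 0.06, adjusted p = 0.0105). After the GC and length correction it was 0.02 (adjusted p = 0.833), and Ube3a had the lowest GC content of the 27 genes, 36.9%. Opposite-strand transcripts that include Snhg14, which runs antisense to Ube3a, cover 27.3% of its exonic bases. Snrpn, a paternally expressed spliceosomal protein, was at 4.73 and 5.86 CPM in NC and at 8.46 and 7.35 CPM in siAirn. The groups did not overlap, and Snrpn passed the threshold of the study with a log2 fold change of 0.58 (SE 0.18), but not the adjusted one (adjusted p = 0.0701). It shares 34.1% of its exonic bases with other genes, mainly Gm38393 and Snurf on the same strand. Ndn, the paternally expressed necdin, was at 31.4 and 38.3 CPM in NC and at 34.9 and 44.1 CPM in siAirn, with overlapping groups (adjusted p = 0.405).

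The Peg10 locus on chromosome 6 has a pair of paternally expressed genes that start next to each other on opposite strands, and only Sgce was called. Sgce, which encodes epsilon-sarcoglycan of the dystrophin-associated complex, was at 65.3 and 75.9 CPM in NC and at 53.1 and 53.0 CPM in siAirn. The NC libraries differed more than the siAirn libraries, and the groups did not overlap. Its log2 fold change was -0.41 (SE 0.09, adjusted p = 0.0238), and -0.59 after the GC and length correction (adjusted p = 0.0147). Peg10, derived from a retrotransposon, was at 205 and 248 CPM in NC and at 194 and 229 CPM in siAirn, with overlapping groups (log2 fold change -0.10, adjusted p = 0.588). On the length-scaled level (FPKM, fragments scaled to transcript length and library size), the ratio of Peg10 to Sgce was 0.75 and 0.78 in NC and 0.87 and 1.04 in siAirn. The ratio was higher in both siAirn libraries, and it was given no test.

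Peg3, a paternally expressed zinc finger protein, was at 6.60 and 5.69 CPM in NC and at 9.24 and 8.37 CPM in siAirn. Both siAirn libraries were higher, and the log2 fold change of 0.52 (SE 0.16) passed the threshold of the study with an adjusted p of 0.0648. After the GC and length correction it was 0.27 (adjusted p = 0.287). Its maternally expressed neighbour Zim1, another zinc finger gene, had 3 and 1 counts in the NC libraries and 7 and 10 in siAirn. The ratio was 4.19, with an exact binomial 95% interval of 1.37 to 17.1 for counting error only. It rests on 4 counts in NC, of which 3 came from NC replicate 1, so it depends on which NC library is used. Usp29, a ubiquitin-specific protease that is paternally expressed and shares its promoter region with Peg3, had 0 counts in each library. A count of 0 allows up to 3 counts, between 0.166 and 0.175 CPM in these libraries. The promoter window of Peg3 is shown because it overlaps that of Usp29 by 263 of 300 bases, while counts were found for Peg3 alone.
Peg3, chr7:6730370-6730669, minus strand, CpG in capitals: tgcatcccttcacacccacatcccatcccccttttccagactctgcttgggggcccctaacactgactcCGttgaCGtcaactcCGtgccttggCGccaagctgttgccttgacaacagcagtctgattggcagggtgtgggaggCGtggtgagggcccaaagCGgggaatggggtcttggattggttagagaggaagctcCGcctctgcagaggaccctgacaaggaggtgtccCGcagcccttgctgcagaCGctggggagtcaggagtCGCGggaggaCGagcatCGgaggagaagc

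It held 13 CpG. The hexamer TGCCGC, the core of the sequence bound by ZFP57 when methylated, was searched on both strands and was not in this window or in those of Airn and Igf2r. It was in 11 of 38 windows of 25 imprinted genes (28.9%), of which some overlap one another, and in 11.6% of all windows. The hexamer holds a CpG, and the imprinted windows had a median of 17 CpG beside 7 for all windows. The shares are thus of windows unlike in CpG, and no difference was tested. These matches describe the sequence of the C57BL/6J reference and not binding in these cells.

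Mest and Copg2 on chromosome 6 were not called. Mest, a paternally expressed hydrolase-fold protein of mesoderm, was at 406 and 361.2 CPM in NC and at 361.0 and 277 CPM in siAirn. NC replicate 2 and siAirn replicate 1 were almost equal, and the log2 fold change was -0.26 (SE 0.13, adjusted p = 0.185). It was -0.47 and called without siAirn replicate 1 (adjusted p = 0.00766), and -0.09 without siAirn replicate 2 (adjusted p = 0.613). Copg2, a coat protein of Golgi vesicles on the opposite strand, was at 40.2 and 36.3 CPM in NC and at 37.5 and 38.2 CPM in siAirn (adjusted p = 0.928). The ends of these genes overlap, over 23.1% of the exonic bases of Mest and 17.8% of those of Copg2. On FPKM, Mest exceeded Copg2 by 13.4 and 14.2 times in NC and by 14.1 and 10.3 times in siAirn.

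Gnas, the stimulatory G protein alpha subunit, with further transcripts from either allele, had the highest FPKM of the imprinted genes. On CPM it was at 968 and 1021 CPM in NC and at 847.5 and 881 CPM in siAirn. Both siAirn libraries were lower, but the log2 fold change of -0.20 (SE 0.06) was not called by edgeR (adjusted p = 0.0648). DESeq2 called it (adjusted p = 0.0463). The gene-level count sums its alternative transcripts, and 22.0% of its exonic bases lie under opposite-strand exons such as those of Nespas.

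Both loci in which a paternally expressed retrogene sits in an intron of a maternally expressed host showed no call. H13, a signal peptide peptidase, was at 200.8 and 199.6 CPM in NC and at 178 and 190.3 CPM in siAirn (adjusted p = 0.231), and its retrogene Mcts2 was at 10.97 and 12.8 CPM in NC and at 11.5 and 11.1 CPM in siAirn (adjusted p = 0.733). Commd1, a COMM domain protein, was at 28.8 and 35.8 CPM in NC and at 29.2 and 26.7 CPM in siAirn (adjusted p = 0.271), and its retrogene Zrsr1 was at 17.5 and 13.1 CPM in NC and at 15.3 and 12.8 CPM in siAirn (adjusted p = 0.660). The groups overlapped for these genes except H13. On FPKM the host exceeded the retrogene in all 4 libraries, H13 by 6.21 to 7.48 times and Commd1 by 10.1 to 17.1 times.

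Dcn, Plagl1 and Dlk1 showed no call in the main fit either. Dcn, the matrix proteoglycan decorin, imprinted in placenta and made chiefly by fibroblasts and stellate cells, was at 257 and 377 CPM in NC and at 313 and 473 CPM in siAirn. The replicates differed more than the groups (log2 fold change 0.31, SE 0.22, adjusted p = 0.374). With the replicate block Dcn was called by edgeR (log2 fold change 0.31, adjusted p = 0.000624). With the block and the GC and length correction together it was not (log2 fold change 0.094, adjusted p = 0.127). Without siAirn replicate 1 the log2 fold change was 0.57 and called (adjusted p = 0.0277), and without siAirn replicate 2 it turned to -0.0179 (adjusted p = 0.958). The summed stellate cell and fibroblast markers, which do not include Dcn, stood at 1769 and 2047 CPM in NC and at 1998 and 2447 CPM in siAirn, and were lowest and highest in the same libraries. Plagl1, the paternally expressed zinc finger factor Zac1, was at 43.9 and 32.1 CPM in NC and at 33.6 and 28.9 CPM in siAirn (adjusted p = 0.251). With the replicate block Plagl1 was called by edgeR as lower (log2 fold change -0.27, adjusted p = 0.0196). Dlk1, a paternally expressed Notch-like membrane protein of fetal liver, had 2 counts in NC replicate 1 and 0 in the other libraries, all within the floor of 3 counts.

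**Figure D3:**
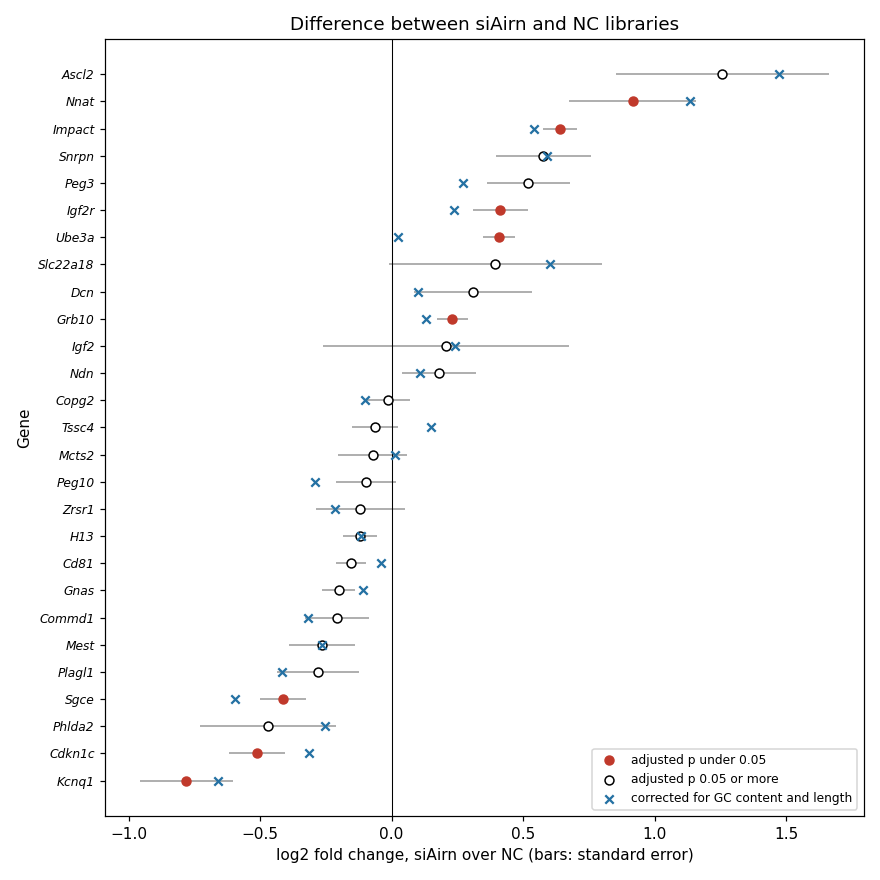
Log2 fold change of siAirn over NC for the 27 imprinted genes tested, with bars for the standard error, filled for an adjusted p under 0.05 (edgeR), and crosses for the value corrected for GC content and length. Ube3a moves from 0.41 to 0.02 with the correction, and Impact, Nnat and Sgce stay called.

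By parental expression, 3 of 14 maternally expressed genes tested were higher and 2 were lower, with a median log2 fold change of -0.04. These 14 include Ube3a, called higher, which is biallelic outside neurons, and Ascl2, Cd81, Tssc4 and Dcn, which are imprinted in placenta. Ascl2 is the 1 gene counted below as higher by the threshold of the study. The grouping follows what is known of each gene, and the allele expressed in these cells was not measured. Of 12 paternally expressed genes, 2 were higher and 1 was lower, with a median of 0.05. Among all genes, 8.27% were called as higher and 8.56% as lower. By the threshold of the study, 1 maternally expressed gene was higher and 2 were lower, and 4 paternally expressed genes were higher and 0 lower, against 5.25% and 4.72% of all genes. DESeq2 called 2 maternally expressed genes as higher and 0 as lower, and 1 paternally expressed gene in each direction. Of the 13628 genes tested by edgeR, DESeq2 called 824 as higher and 894 as lower. With GC content and length corrected, 0 maternally expressed genes were called, and 2 paternally expressed genes were higher and 1 was lower, against 2.82% and 5.14% of all genes. Leaving out each library in turn gave medians of -0.043 to -0.015 for the maternally and 0.00143 to 0.12 for the paternally expressed genes, and limma on log2(FPKM + 1) turned the latter median to -0.04. The difference between maternally and paternally expressed genes was not tested.

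Levels between genes were compared on FPKM. Of the 31 genes, 15 had a mean of at least 10 FPKM over the 4 libraries, 8 had 1 to 10 and 8 were under 1, where the median of all genes in the table was 4.28. Gnas (596 FPKM), Cd81 (335 FPKM), Dcn (204 FPKM), Mest (143 FPKM) and H13 (116 FPKM) had the highest levels. Dcn ran from 146 to 274 FPKM and Mest from 113 to 164 FPKM, so these neighbours in the order overlapped. Commd1 (42.5), Sgce (39.4), Grb10 (36.3) and Peg10 (33.4 FPKM) followed, with overlapping libraries between neighbours in the order. This order over all libraries did not hold in each group. Sgce lay above Grb10 in NC (means of 44.4 and 33.3 FPKM) and below it in siAirn (34.3 and 39.3 FPKM). Igf2r was at 4.0 to 5.91 FPKM, near the median gene, and Igf2 (0.47 FPKM) and Airn (0.08 FPKM) were among the lowest.

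**Figure D4:**
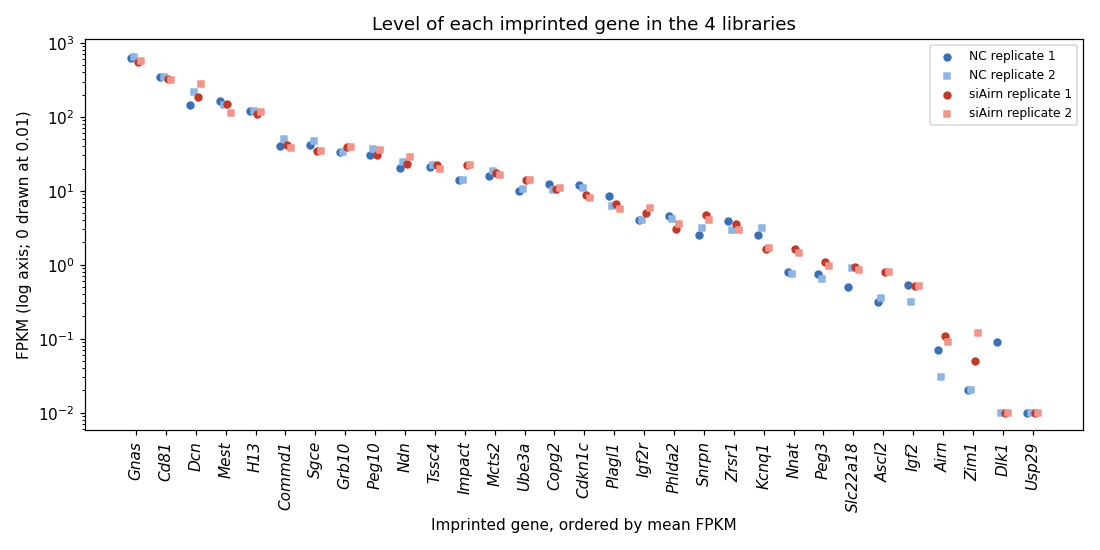
FPKM of the 31 imprinted genes in each library on a log axis, ordered by the mean over the 4 libraries, with 0 drawn at 0.01. Gnas is highest at a mean of 596 FPKM, and Airn, Zim1, Dlk1 and Usp29 lie near or at 0.

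Factors that act on imprinted DNA and its chromatin, including those that keep methylation and the TET enzymes that oxidise it, were measured as background for these genes. Of 17 tested, 4 were higher and none was lower in siAirn (8.27% and 8.56% of all genes), with a median log2 fold change of 0.14. Tet2, a TET enzyme, had a log2 fold change of 0.54 (14.3 and 15.3 CPM in NC, 22.1 and 20.8 CPM in siAirn, adjusted p = 0.0187). Zfp445, a zinc finger protein that protects imprints together with ZFP57, had 0.46 (52.2 and 49.8 CPM in NC, 70.5 and 70.2 CPM in siAirn, adjusted p = 0.00950). The chromatin proteins Atrx and Cbx5 had 0.41 (adjusted p = 0.0130) and 0.31 (adjusted p = 0.0216). After the GC and length correction none of the 17 was called, with adjusted p of 0.168 for Tet2, 0.0533 for Zfp445, 0.615 for Atrx and 0.899 for Cbx5. Zfp57 itself (26.1 and 25.8 CPM in NC, 24.4 and 23.8 CPM in siAirn, adjusted p = 0.419) and the maintenance methyltransferase Dnmt1 (53.9 and 50.0 CPM in NC, 55.8 and 56.7 CPM in siAirn, adjusted p = 0.310), both named after their values were seen, were not called.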

How the data were processed

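RNA-seq reads of 50 bases, single end, came from 4 libraries of LSECs grouped by their labels. Estimated counts, as the authors deposited them, carry no normalization, and 76.5% to 76.8% of them are exactly whole as written (no tolerance). The second value deposited by the authors per gene and library was read as FPKM from its scaling. The submitters' processing notes name BWA, Bowtie2, RSEM and hg19, a human build, although the gene identifiers are from mouse. The mouse build and the use of strand are not given in the sources used here. Coordinates belong to GENCODE M21 and RefSeq.

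All genes were kept for library totals. Counts were rounded for edgeR 4.0.16 in R 4.3.3 (TMM, factors 0.985 to 1.02, filterByExpr defaults, glmQLFit with robust set to false, glmQLFTest, no covariate). The Benjamini-Hochberg adjustment ran over 13628 genes. CPM use TMM library sizes. Airn, Zim1, Dlk1 and Usp29 stayed below the filter and appear as counts only. Intervals and the floor of 3 counts cover counting error only. The correction used natural splines (5 degrees of freedom) of GC content and length for each library. Alternatives included DESeq2 1.42.0, limma 3.58.1 on log2 FPKM, other filters and normalizations, a replicate block and leaving out each library. The calculations were tested on simulated data. All imprinted genes of the list are named. Genes of the lists beside the imprinted genes are named where called, at most 4 per list, markers are given as counts, and any other gene named is marked. The genes, lists and tests were chosen with earlier results of these data known. Columns of group means were not used.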

Additional observations from a re-analysis of the deposited data

How the results depend on the processing

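The main counts were 5 imprinted genes higher, 3 lower and 7 past the threshold of the study. The number higher was 3 with DESeq2 and with limma on log2(FPKM + 1), 8 with edgeR's likelihood-ratio test, and 2 after the GC and length correction. The share of all genes called moved too, from 16.8% to 9.54%, 10.6%, 23.0% and 7.96%. With limma on log2(FPKM + 0.1) or without a filter on FPKM, 0 were higher and 0 lower, and limma then called 7 and 0 genes in all. The number lower was 1 with the correction for GC content and length. Leaving out each library in turn also moved these counts, and the share of all genes called moved too. Without NC replicate 1 or 2, edgeR no longer called any imprinted gene, and it called few or no genes of all tested. These fits leave 1 library in a group, which is assumed to vary like the other group. The number past the threshold of the study was 4 with DESeq2. With limma on log2(FPKM + 1), on log2(FPKM + 0.1) and without a filter it was 3, 4 and 3. For a fold change over 2 it was 1, and for an unadjusted p under 0.01 it was 4. The share of all genes past the threshold, 9.96% in the main fit, is not given for these settings. A difference from all genes can therefore not be read from these numbers. DESeq2 gave no adjusted p for 8 imprinted genes.

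The groups share replicate numbers, but no label says that a number marks a shared mouse, day or batch. The correlation between groups of the difference between replicates 1 and 2 was 0.233 over the genes tested. With the replicate block, 9 imprinted genes were higher and 7 lower, with 4841 genes (35.5%) called in all. The 8 genes gained were Ascl2, Peg3, Snrpn and Dcn as higher, and Cd81, Mest, Plagl1 and Gnas as lower. With the block and the correction for GC content and length together, 6 imprinted genes were higher and 7 lower, with 31.8% of 12948 genes called. Of the genes gained with the block, Ascl2, Snrpn, Mest and Plagl1 were then called, and Peg3, Dcn, Cd81 and Gnas were not.

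The sign of 7 genes that were not called turned under some settings. Leaving out each library in turn gave log2 fold changes of -0.29 to 0.95 for Igf2, -0.15 to 0.0178 for Tssc4, -0.0877 to 0.0582 for Copg2, -0.23 to 0.046 for Peg10, -0.32 to 0.10 for Zrsr1, -0.0179 to 0.61 for Dcn and -0.18 to 0.0398 for Mcts2. The correction for GC content and length gave 0.148 for Tssc4 and 0.0119 for Mcts2, and 0.145 and 0.0112 together with the replicate block. The cause was not tested. The 8 called genes kept their sign under each alternative run. Depth limits Airn, Zim1, Dlk1 and Usp29, which had at most 11 counts in a library.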

Other observations

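Of 25 further imprinted genes tested, outside the list above, 1 was higher and 3 were lower in the libraries labelled siAirn, with a median log2 fold change of 0.04. That is 4 of 25, near the 16.8% of all genes tested. Htr2a, the serotonin receptor 2A, was at 16.1 and 18.96 CPM in NC and at 35.1 and 49.0 CPM in siAirn, without overlap (log2 fold change 1.26, SE 0.17, edgeR adjusted p = 0.00854). Dhcr7, the enzyme of the last step of cholesterol synthesis, was at 26.1 and 28.8 CPM in NC and at 18.03 and 17.8 CPM in siAirn (log2 fold change -0.62, adjusted p = 0.0116). Phactr2, a phosphatase and actin regulator, was at 56.3 and 50.5 CPM in NC and at 39.3 and 33.0 CPM in siAirn (log2 fold change -0.56, adjusted p = 0.0184). Asb4, a maternally expressed gene of the region of Peg10 and Sgce that encodes a subunit of a ubiquitin ligase, was at 28.7 and 34.2 CPM in NC and at 23.7 and 23.6 CPM in siAirn (log2 fold change -0.41, adjusted p = 0.0440). All 4 calls held after the GC and length correction (adjusted p from 0.0112 for Phactr2 to 0.0434 for Asb4).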
